A study of Mus musculus with 18 samples.

Results

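Marked endothelium of SmoM2 tumors was set against the unmarked, Pecam1-negative cells of such tumors, with attention to the genes through which the 2 could signal to each other: ligands, receptors, adhesion molecules and matrix. The population named in each sample title chose the arrays: 4 of Tom+/Pecam1+ cells and 4 of Tom-/Pecam1- cells, 8 of the 18 arrays in the series. The cells were sorted by flow cytometry from digested tumors of mice that were aP2-Cre/+, tdTomato/+ and SmoM2/+ on a BJ;SJL;B6.129 background. Cre stands under the aP2 promoter, which belongs to Fabp4, a gene for a lipid-carrying protein, and tdTomato marks cells in which Cre is or was active. SmoM2 is an activated form of Smoothened, the membrane protein that transmits hedgehog signals, and the mice behind both populations carried it, so neither population is a healthy control. Repeats 1 to 3 of each population came from mice at postnatal day 48 and repeat 4 at day 38. A further 4 arrays, of Tom+/Pecam1- tumor cells from mice of that genotype, entered the estimate of the spread and are given as levels only. The 6 muscle arrays were not compared and entered only the choice of probe set and 1 alternative fit. The labels call the arrays biological repeats without saying which tumor or animal each came from, so p-values measure the spread between these samples.

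Blood vessels in a tumor are lined by endothelial cells that receive growth signals from the tissue around them, above all VEGF acting on Kdr and Flt1 and angiopoietin acting on Tek. In return they send PDGF-B to the pericytes that cover them, present Notch ligands and ephrins to cells they touch, and display selectins and ICAMs that let leukocytes roll, stop and pass through the wall. Endothelium rests on a basement membrane of laminins, collagen IV, nidogens and perlecan, while fibroblasts lay down fibrillar collagens and small proteoglycans.

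The marked population matched its label. All 17 endothelial markers listed were higher in Tom+/Pecam1+ cells, and the median over the list lay between 10.21 and 10.77 log2 intensity on the Tom+/Pecam1+ arrays, against 5.87 and 6.36 on the Tom-/Pecam1- arrays. Pecam1, which sorted the cells and so is a check of the gate only, read 11.98, 11.96, 12 and 11.57 in Tom+/Pecam1+ cells of repeats 1 to 4, against 7.38, 7.34, 6.91 and 7.84 in Tom-/Pecam1- cells. Fabp4, whose promoter drives the Cre, read 12.49, 12.21, 12.69 and 11.37 in Tom+/Pecam1+ cells, against 9.38, 9.51, 9.29 and 10.62 in Tom-/Pecam1- cells (log2 difference 2.49, SE 0.35, adjusted p = 0.000451). Every set of 4 values below follows the order of repeats 1 to 4. Where no array of 1 population exceeded its 40th percentile, the floor of the filter on dim genes, the fold is given as a lower bound against that floor. Where only some arrays exceeded it, the fold is given as fitted and rests partly on values near background. Il1b, Col14a1 and Itgam, for example, exceeded it on 1 of the 4 Tom+/Pecam1+ arrays.

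The unmarked cells were a mixture. Higher in Tom-/Pecam1- cells were all 10 pan-leukocyte markers, 15 of 15 macrophage and monocyte markers, 10 of 12 neutrophil markers, 12 of 12 fibroblast markers, 8 of 8 tendon markers, 12 of 13 pericyte and smooth muscle markers, 7 of 7 Schwann cell markers and 12 of 12 muscle precursor markers. Over all genes tested, 17.1% were higher in Tom-/Pecam1- cells and 14.8% in Tom+/Pecam1+ cells. The filter on dim genes needed any 3 of 12 tumor arrays. A marker could thus pass it through the Tom-/Pecam1- arrays alone, as the neutrophil gene Retnlg did, and such members add no separate support to the counts. Ptprc, the CD45 antigen of leukocytes, read 4.79, 4.55, 4.28 and 5.38 in Tom+/Pecam1+ cells, above the 40th percentile of the array on 1 of the 4, against 10.29, 10.07, 10.35 and 9.12 in Tom-/Pecam1- cells. The hedgehog target Gli1 was 3.53-fold lower in Tom+/Pecam1+ cells (adjusted p = 0.00198), while Smo (log2 difference 0.02, adjusted p = 0.941) and Ptch1 (-0.87, adjusted p = 0.0938) did not pass the test. In Tom+/Pecam1- tumor cells Gli1 ranged from 8.53 to 9.73 and Ptch1 from 11.04 to 11.64. Both lay above every Tom-/Pecam1- array, which reached 7.72 and 10.12. The median of the muscle precursor markers was 8.57 to 9.02 in Tom+/Pecam1- cells, against 6.66 to 8 in Tom-/Pecam1- cells. That of the fibroblast markers was 9.94 to 10.52, against 10.22 to 10.51. None of these is thus particular to the unmarked cells. "Stroma" therefore stands below for all of these cell types together, and the part that each of them has in a difference was not tested. In bulk samples such as these, fewer cells of a type and less RNA per cell cannot be told apart.

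Repeat 4 stood apart in how far the populations differed. The median difference of the pan-leukocyte markers, Tom+/Pecam1+ minus Tom-/Pecam1-, was -3.98, -3.49 and -2.75 in repeats 1 to 3 but -0.95 in repeat 4, and that of the lymphocyte markers was -2.83, -1.66, -1.26 and -0.04. The neutrophil markers split otherwise, at -5.12 and -5.25 in repeats 1 and 2 and -1.47 and -1.53 in repeats 3 and 4. The fibroblast markers ranged from -3.85 to -3.18 and the tendon markers from -4.86 to -4.03, with repeat 4 inside or next to the other repeats. Of the listed signalling and matrix genes called lower in Tom+/Pecam1+ cells, 52.8% had their smallest difference in repeat 4, and of those called higher 59.7%. Over all called genes these shares were 46.1% and 39.8%. The muscle precursor markers differed by -1.71, -2.08, -2.59 and -0.39. Repeat 4 is also the only repeat of day 38, so age and repeat cannot be told apart. The deposited tumor values also had the mean of each repeat number over the 3 sorted populations removed, so a low value in 1 population raises the other 2 of that repeat, whereas the difference between populations within a repeat is untouched.

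**Figure D1:**
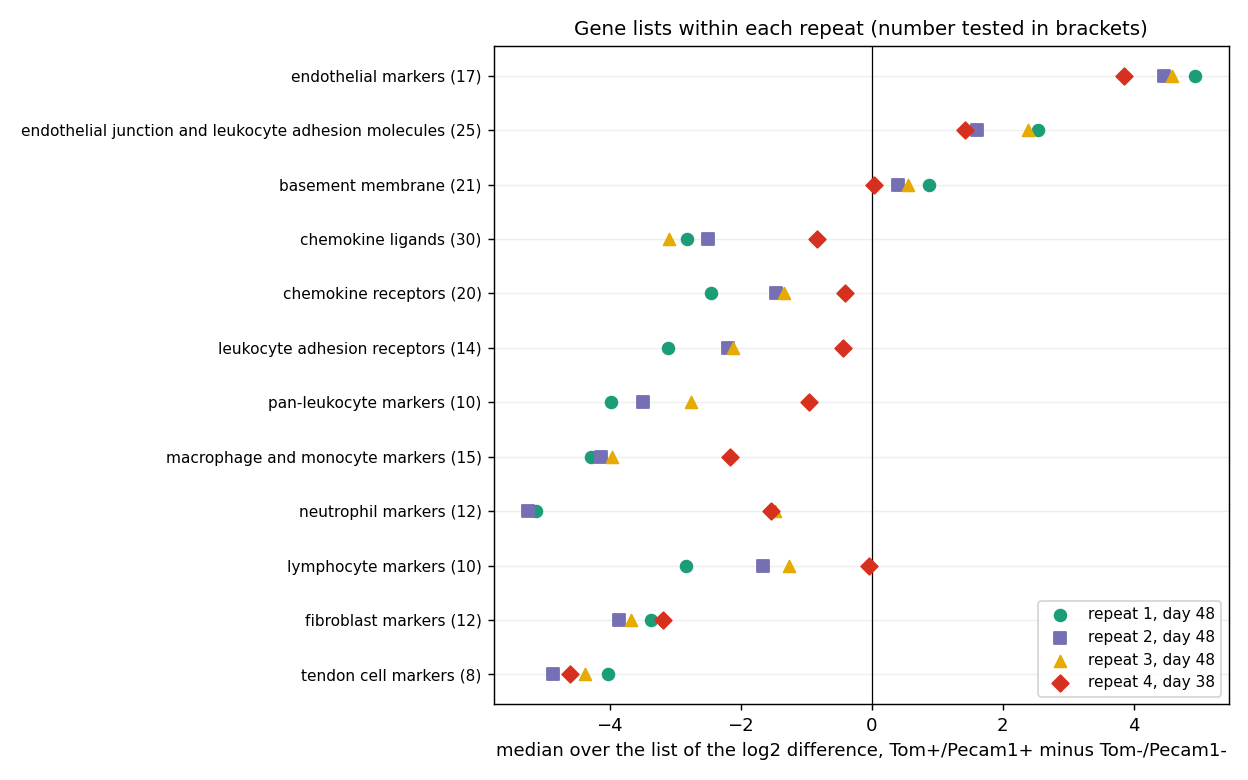
Median over each gene list (rows, number of genes tested in brackets) of the log2 difference between the Tom+/Pecam1+ and the Tom-/Pecam1- array of the same repeat (horizontal axis), 1 symbol per repeat. In repeat 4 the pan-leukocyte, chemokine and lymphocyte lists lie closer to 0 than in repeats 1 to 3 (lymphocyte markers -0.04), while the fibroblast and tendon lists stay at -3.18 and -4.61.

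Of 15307 genes tested, 4889 (31.9%) passed an adjusted p of 0.05 in limma with the repeat number as a block: 2267 (14.8%) were higher in Tom+/Pecam1+ cells and 2622 (17.1%) lower. Of 570 ligand, receptor, adhesion and matrix genes tested among 644 listed, 134 (23.5%) were higher in Tom+/Pecam1+ cells and 284 (49.8%) lower, with a median log2 difference of -0.55 against 0.02 over all genes. Without repeat 4 the counts were 149 and 294. Of all calls 46.4% were higher in Tom+/Pecam1+ cells, and 65.2% were when each array was centred on the median of its probe sets with a gene name, which moved the median difference of all genes to 0.167. On that scale 157 listed genes were higher and 260 lower. Of these 570 genes, 54 also stand on a cell type marker list, 13 of them on the endothelial list, so the counts and the marker check share genes. On no Tom+/Pecam1+ array did 34 of the 570 exceed the 40th percentile, so these passed the filter through the other populations. The 2 arms differed in kind. Notch ligands and ephrins (6 higher, 1 lower of 11), endothelial junction and adhesion molecules (19 and 2 of 25) and basement membrane genes (8 and 1 of 21) had more members higher in Tom+/Pecam1+ cells. Chemokines (1 and 22 of 30), cytokines and TNF family ligands (2 and 17 of 29), chemokine receptors (2 and 14 of 20), leukocyte adhesion receptors (1, Pecam1 itself, and 13 of 14), fibrillar collagens (1 and 15 of 22) and proteoglycans (1 and 15 of 20) had more members lower there.

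**Figure D2:**
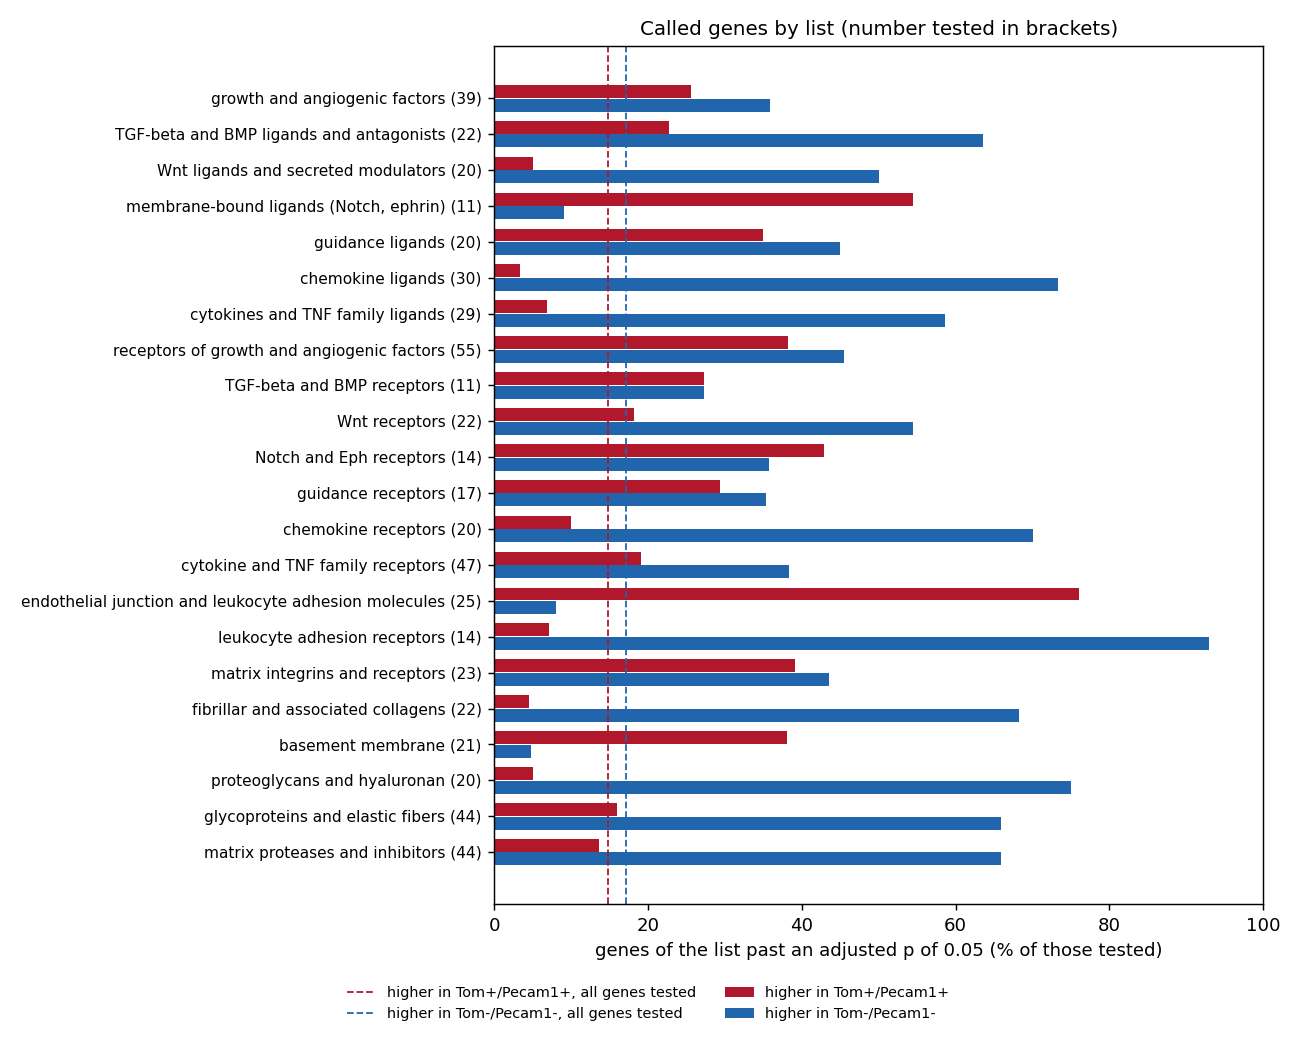
Share of the tested genes of each list (rows, number tested in brackets) that passed an adjusted p of 0.05, for genes higher in Tom+/Pecam1+ cells (red) and higher in Tom-/Pecam1- cells (blue). Dashed lines give the shares over all 15307 genes, 14.8% and 17.1%. Endothelial junction and adhesion molecules reach 76% in red and leukocyte adhesion receptors 92.9% in blue.

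Ligand and receptor were then read together. Of 181 listed pairs on 45 signalling axes, 160 had both genes tested. In 19 the ligand was higher in Tom+/Pecam1+ cells and the receptor in Tom-/Pecam1- cells, and in 35 the ligand was higher in Tom-/Pecam1- cells and the receptor in Tom+/Pecam1+ cells. In 29 pairs both genes were higher in Tom+/Pecam1+ cells and in 29 both were higher in Tom-/Pecam1- cells, while in 48 at least 1 gene was not called. Of all listed ligands tested, 18.7% were higher and 50.9% lower in Tom+/Pecam1+ cells, and of all listed receptors 26.9% and 44.6%. How far these shares alone give the class counts was not tested, so the classes are not read as a direction of signalling. Within an axis every listed ligand was joined with every listed receptor, so a pair need not be one that binds. Pairs share genes, so these counts are not independent of each other.

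**Figure D3:**
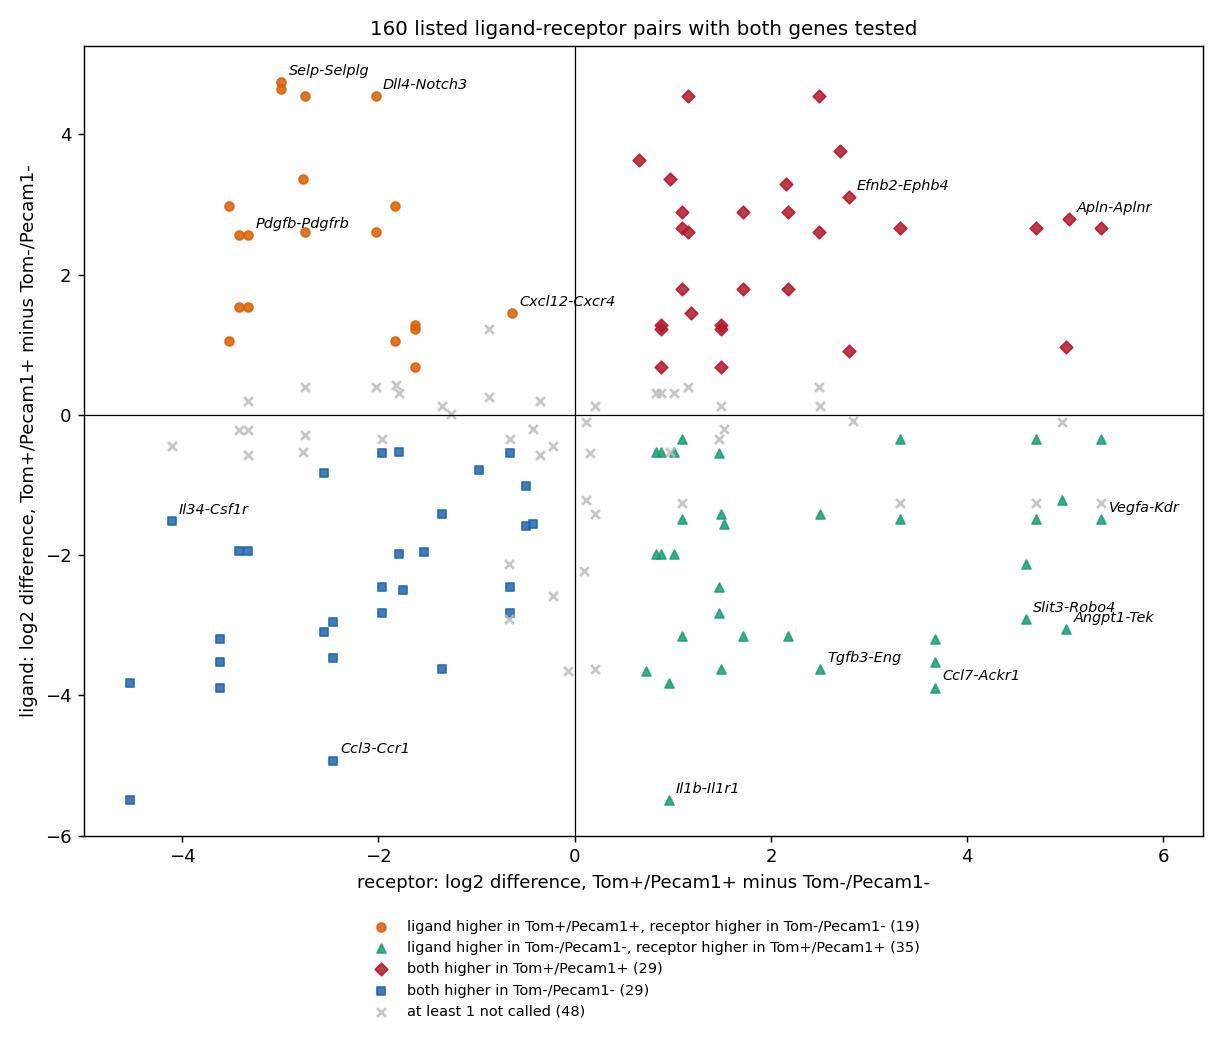
Each point is 1 of the 160 listed ligand-receptor pairs with both genes tested, with the receptor's log2 difference (Tom+/Pecam1+ minus Tom-/Pecam1-) on the horizontal axis and the ligand's on the vertical axis. Pairs join every listed ligand of a signalling axis with every listed receptor of it, so a pair need not be one that binds. Symbols mark the classes, with 19 pairs in the upper left class (ligand endothelial, receptor stromal) and 35 in the lower right class (ligand stromal, receptor endothelial).

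Pdgfb and Pdgfd were higher in the endothelium, and both PDGF receptors in the stroma. Pdgfb, the factor that recruits pericytes, read 8.73, 8.57, 8.82 and 9.09 in Tom+/Pecam1+ cells, against 6.45, 6.44, 6.06 and 6.02 in Tom-/Pecam1- cells. The groups lay far apart, and Pdgfb was 5.89-fold higher in Tom+/Pecam1+ cells (log2 difference 2.56, SE 0.16, adjusted p = 2.31e-06). Pdgfrb, its receptor on pericytes and fibroblasts, read 6.47, 6.64, 5.87 and 7.12 in Tom+/Pecam1+ cells, against 9.62, 9.83, 10.12 and 9.85 in Tom-/Pecam1- cells, 10.1-fold lower (adjusted p = 1.95e-05). Pdgfra, the receptor typical of fibroblasts, was 10.7-fold lower (adjusted p = 2.76e-05). Pdgfd was higher in Tom+/Pecam1+ cells by 1.54 (adjusted p = 0.00642), but its difference in repeat 4 was 0.18 and the call was lost under 2 of 24 alternative settings, each leaving out 1 of the other repeats. Of the remaining family members, Pdgfc was 3.85-fold lower in Tom+/Pecam1+ cells (adjusted p = 0.000105) and Pdgfa was not called (-0.22, adjusted p = 0.257). In the Tom+/Pecam1- tumor cells Pdgfb ranged from 5.54 to 5.84 and Pdgfrb from 9.41 to 10.38, so Pdgfb lay below all Tom-/Pecam1- arrays and Pdgfrb overlapped them.

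Notch ligands and receptors divided between the populations. Dll4, a Notch ligand of arterial and sprouting endothelium, read 9.50, 9.09, 9.09 and 9.02 in Tom+/Pecam1+ cells, against 4.51, 4.72, 4.53 and 4.74 in Tom-/Pecam1- cells (at least 20.6-fold, adjusted p = 1.28e-07). Jag2 read 8.08, 7.93, 7.88 and 7.44 in Tom+/Pecam1+ cells, against 5.01, 5.04, 5.13 and 5.69 in Tom-/Pecam1- cells (6.11-fold, adjusted p = 5.33e-06). No array of either gene overlapped between the populations. Among the receptors, Notch4 (5.63-fold, adjusted p = 6.02e-06) and Notch1 (2.24-fold, adjusted p = 0.00127) were higher in Tom+/Pecam1+ cells. Notch2 read 6.25, 6.12, 5.99 and 5.94 in Tom+/Pecam1+ cells, against 8.89, 8.84, 8.71 and 8.86 in Tom-/Pecam1- cells, 6.73-fold lower (adjusted p = 4.53e-07). Notch3, the receptor of pericytes and vascular smooth muscle, was 4.08-fold lower (adjusted p = 0.000161). Jag1 was close to the threshold without passing it (0.40, adjusted p = 0.0523).

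Ephrins and semaphorins, which act on contact or at short range, had members on each side. Efna1 read 9.80, 9.57, 9.43 and 9.43 in Tom+/Pecam1+ cells, against 5.83, 6.32, 6.31 and 6.32 in Tom-/Pecam1- cells (10.3-fold, adjusted p = 3.33e-07), and Epha3, 1 of its receptors, was 6.82-fold lower (adjusted p = 0.000325). The arterial ephrin Efnb2 (8.65-fold, adjusted p = 8.16e-06) and its venous receptor Ephb4 (6.98-fold, adjusted p = 4.89e-07) were both higher in Tom+/Pecam1+ cells. Sema7a, a membrane-anchored semaphorin, read 10.03, 9.93, 9.86 and 10.76 in Tom+/Pecam1+ cells, against 7.08, 7.28, 6.93 and 6.96 in Tom-/Pecam1- cells (8.47-fold, adjusted p = 1.08e-05). Plxnc1, the plexin that binds it, read 4.17, 4.37, 4.40 and 5.39 in Tom+/Pecam1+ cells, against 8.06, 7.57, 7.39 and 6.47 in Tom-/Pecam1- cells, 6.91-fold lower (adjusted p = 0.000249). This pair was not among the 181 and was put together after its values were seen. The difference of Plxnc1 was smallest in repeat 4, at -1.08.

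For other pairs the sides were exchanged: Angpt1 and Vegfa were higher in the stroma and their receptors in the endothelium. Angpt1, the ligand that activates Tek, read 3.68, 3.73, 3.21 and 4.03 in Tom+/Pecam1+ cells, against 6.50, 6.39, 7.20 and 6.79 in Tom-/Pecam1- cells, at least 3.64-fold lower (adjusted p = 1.16e-05). Tek read 11.29, 10.91, 10.80 and 10.21 in Tom+/Pecam1+ cells, against 5.35, 5.92, 5.55 and 6.36 in Tom-/Pecam1- cells, 32.2-fold higher (adjusted p = 9.37e-07), and its relative Tie1 was 31.3-fold higher (adjusted p = 1.28e-07). Both genes separated the populations on every array. Vegfa read 6.43, 6.20, 6.49 and 7 in Tom+/Pecam1+ cells, against 7.70, 8.51, 7.94 and 7.94 in Tom-/Pecam1- cells, 2.82-fold lower (adjusted p = 0.00133), and it ranged from 8.20 to 9.01 in Tom+/Pecam1- tumor cells. Kdr, its main signalling receptor, read 11.37, 11.35, 11.34 and 10.32 in Tom+/Pecam1+ cells, against 5.46, 5.66, 5.42 and 6.36 in Tom-/Pecam1- cells (41.4-fold, adjusted p = 7.68e-07). Flt1, a VEGF receptor that mostly holds the ligand, was 25.9-fold higher (adjusted p = 4.11e-06), Nrp1, a coreceptor, 2.13-fold (adjusted p = 0.000871) and Ptprb, a phosphatase that restrains Tek, 31.4-fold (adjusted p = 3.63e-07). Vegfd was 2.49-fold lower in Tom+/Pecam1+ cells (adjusted p = 0.0294), a call lost under 7 alternatives, whereas Pgf was not called (-1.26, adjusted p = 0.0789).

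Some ligands were higher in the endothelium, several of them together with a receptor. Vegfc, which acts on Flt4 and Kdr, read 10.26, 9.70, 9.87 and 8.74 in Tom+/Pecam1+ cells, against 6.42, 6.84, 6.94 and 7.71 in Tom-/Pecam1- cells (6.35-fold, adjusted p = 0.000278), and Flt4 was 9.98-fold higher (adjusted p = 7.49e-06). Angpt2, a context-dependent antagonist of Tek, was higher by 0.97 (adjusted p = 0.024), a call lost under 10 of the 24 settings. Edn1, the vasoconstrictor endothelin 1, read 9.50, 9.62, 9.32 and 8.78 in Tom+/Pecam1+ cells, against 5.84, 5.29, 5.64 and 7.30 in Tom-/Pecam1- cells (9.79-fold, adjusted p = 0.000331), and its receptor Ednrb was 4.44-fold higher (adjusted p = 0.000617). Kitl, stem cell factor, read 10.16, 9.96, 9.78 and 9.85 in Tom+/Pecam1+ cells, against 6.04, 6.24, 6.16 and 6.75 in Tom-/Pecam1- cells (12.5-fold, adjusted p = 8.19e-07). Repeat 4 had the lowest Vegfc and Edn1 among the Tom+/Pecam1+ arrays and the highest among the Tom-/Pecam1- arrays. Tnfsf10, the death ligand TRAIL, was 13.5-fold higher (adjusted p = 1.09e-05) and its receptor Tnfrsf10b 6.5-fold (adjusted p = 5.92e-06). Dhh, a hedgehog ligand that endothelium can make, was 2.33-fold higher (adjusted p = 0.000124), while its receptor Ptch1 was not called (-0.87, adjusted p = 0.0938).

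Apelin did not hold across repeats. Apln, a peptide of sprouting tip cells, read 8.26, 8.12, 8.02 and 5.70 in Tom+/Pecam1+ cells, against 4.35, 4.27, 4.32 and 6.01 in Tom-/Pecam1- cells. In repeats 1 to 3 the Tom+/Pecam1+ arrays were higher by 3.91, 3.85 and 3.71, while in repeat 4 the difference was -0.31 and the groups overlapped. The fit over all repeats gave a log2 difference of 2.79 (SE 0.61, adjusted p = 0.00627), a call lost when repeat 1, 2 or 3 was left out (adjusted p = 0.0503 to 0.0619). Its receptor Aplnr read 11.31, 11.24, 10.89 and 9.30 in Tom+/Pecam1+ cells, against 5.06, 5.77, 5.18 and 6.56 in Tom-/Pecam1- cells, so that all 4 repeats differed in 1 direction (33-fold, adjusted p = 4.77e-05). Esm1, an endothelial proteoglycan of tip cells, differed by 4.71, 2.56, 3.29 and 1.24 in repeats 1 to 4 (adjusted p = 0.000562).

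Further growth factors and receptors of small vasoactive ligands also divided between the populations. Hgf, hepatocyte growth factor, read 4.10, 4.04, 4.07 and 4.87 in Tom+/Pecam1+ cells, against 6.62, 6.52, 6.46 and 6.35 in Tom-/Pecam1- cells, at least 3.1-fold lower (adjusted p = 5.06e-05), while its receptor Met was not called (0.09, adjusted p = 0.88). Fgf18 was 5.48-fold lower (adjusted p = 0.000109) and Fgfr3, a receptor for it, 2.77-fold higher (adjusted p = 0.00264), whereas Fgfr1 was 3.89-fold lower (adjusted p = 0.000268). Calcrl and Ramp2, which together form an adrenomedullin receptor, were 7.18-fold (adjusted p = 2.72e-07) and 3.4-fold higher (adjusted p = 1.2e-06), and adrenomedullin itself, Adm, was not called (-0.08, adjusted p = 0.711). Receptors for sphingosine 1-phosphate split: S1pr1, the main endothelial form, was 11.3-fold higher (adjusted p = 6.35e-06) and S1pr3 5.32-fold lower (adjusted p = 4.21e-05). The insulin receptor Insr was 5.88-fold higher (adjusted p = 8.35e-05), and Igf1r 1.41-fold lower (adjusted p = 0.0258), a call lost under 12 alternatives. Egfr, the receptor for EGF family ligands, read 5.86, 5.90, 5.87 and 6.22 in Tom+/Pecam1+ cells, against 9.31, 9.55, 9.63 and 9.38 in Tom-/Pecam1- cells, 11.4-fold lower (adjusted p = 2.24e-07). Axl, which binds Gas6, was 10.1-fold lower (adjusted p = 8.21e-07), and Gas6 was not called (-0.57, adjusted p = 0.0649).

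**Figure D4:**
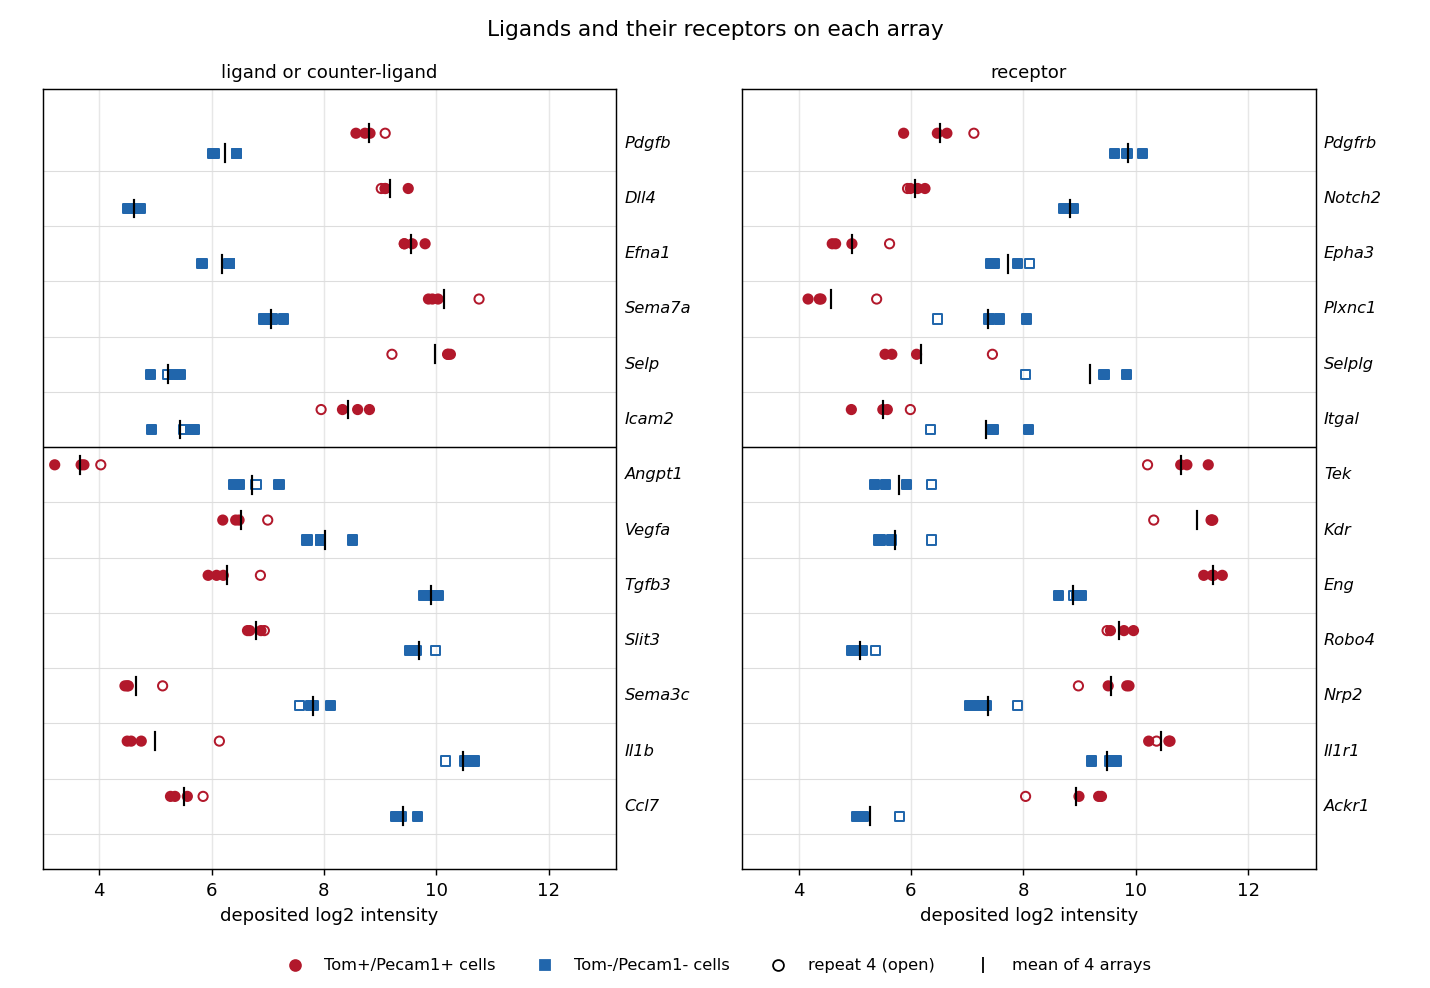
Deposited log2 intensity (horizontal axis) of ligands or counter-ligands (left) and their receptors (right), 1 pair a row, on the 4 Tom+/Pecam1+ arrays (red circles) and the 4 Tom-/Pecam1- arrays (blue squares); open symbols are repeat 4 and bars the mean of 4 arrays. Above the black line the ligand is the endothelial gene (Dll4, 9.02 to 9.50 against 4.51 to 4.74), below it the receptor is (Robo4, 9.49 to 9.96 against 4.95 to 5.37). Only pairs whose genes lay on opposite sides are shown, so this split was fixed by the choice of pairs. Sema7a with Plxnc1 is not among the 181 listed pairs. A pair need not be one that binds.

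Tgfb2 and Tgfb3 were higher in the stroma, and the TGF-beta receptors typical of endothelium in the endothelium. Tgfb3 read 6.09, 6.21, 5.94 and 6.87 in Tom+/Pecam1+ cells, against 9.92, 9.77, 10.03 and 9.87 in Tom-/Pecam1- cells, 12.3-fold lower (adjusted p = 3e-06), and Tgfb2 was 2.67-fold lower (adjusted p = 0.0052). Tgfb1 was not called (0.13, SE 0.19, adjusted p = 0.666). Eng, the coreceptor endoglin, read 11.54, 11.36, 11.21 and 11.38 in Tom+/Pecam1+ cells, against 8.63, 9.03, 8.95 and 8.89 in Tom-/Pecam1- cells (5.64-fold, adjusted p = 7.07e-07), and Acvrl1, the ALK1 receptor, was 2.81-fold higher (adjusted p = 8.45e-06). The general type I receptor Tgfbr1 was 2.56-fold lower in Tom+/Pecam1+ cells (adjusted p = 2.33e-05) and the type II receptor Tgfbr2 was not called (0.21, adjusted p = 0.237). Among BMPs, Bmp6 was 2.35-fold higher in Tom+/Pecam1+ cells (adjusted p = 0.00197) and Bmp5 9.27-fold lower (adjusted p = 7.58e-05), and the receptor Bmpr1a was 3.09-fold lower (adjusted p = 5.6e-05). Of the ligands and antagonists of this list 14 of 22 (63.6%) were lower in Tom+/Pecam1+ cells, against 17.1% of all genes tested. Among them were the BMP antagonist Chrdl1 (at least 17.1-fold, adjusted p = 2.02e-06) and the latent TGF-beta binding protein Ltbp2 (13.8-fold, adjusted p = 9.23e-07). The median of this list was 8 to 8.76 in Tom+/Pecam1- tumor cells, against 7.89 to 8.28 in Tom-/Pecam1- cells, so it is not particular to the unmarked cells.

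Wnt genes that passed the test were mostly lower in Tom+/Pecam1+ cells: 10 of 20 ligands and modulators (50%) and 12 of 22 receptors (54.5%), against 17.1% of all genes tested. Receptors called higher were 4 of 22 (18.2%), against 14.8%. In Tom+/Pecam1- tumor cells the median of the Wnt ligand list was 6.19 to 6.51, against 5.88 to 6.21 in Tom-/Pecam1- cells. That of the Wnt receptors was 7.21 to 7.44, against 6.67 to 6.99, so neither list is particular to the unmarked cells. The modulator Sfrp2 read 4.66, 4.19, 4.20 and 5.15 in Tom+/Pecam1+ cells, against 9.08, 9.31, 9.46 and 9.64 in Tom-/Pecam1- cells, 28.2-fold lower (adjusted p = 2.99e-06), and Wnt5a was at least 1.88-fold lower (adjusted p = 0.00209). The 4 Wnt receptor genes higher in Tom+/Pecam1+ cells were Fzd6 (6.49-fold, adjusted p = 8.95e-06), Tspan12 (3.74-fold, adjusted p = 0.000131), Fzd4 (2.87-fold, adjusted p = 0.000273) and Lrp5 (2.04-fold, adjusted p = 0.00148). Tspan12, Fzd4 and Lrp5 form the receptor complex for norrin in retinal vessels.

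Guidance genes did not lean to 1 side. Of 20 ligands tested 7 (35%) were higher and 9 (45%) lower in Tom+/Pecam1+ cells. Of 17 receptors 5 (29.4%) were higher and 6 (35.3%) lower, against 14.8% and 17.1% of all genes tested. Slit3 read 6.88, 6.68, 6.64 and 6.94 in Tom+/Pecam1+ cells, against 9.53, 9.65, 9.61 and 9.98 in Tom-/Pecam1- cells, 7.49-fold lower (adjusted p = 1.89e-06), and Slit2 was 4.34-fold lower (adjusted p = 0.000602). Robo4, the endothelial member of the Robo family, read 9.96, 9.55, 9.79 and 9.49 in Tom+/Pecam1+ cells, against 4.96, 5.13, 4.95 and 5.37 in Tom-/Pecam1- cells (24.2-fold, adjusted p = 1.28e-07). Whether Robo4 binds these Slits was not tested. Sema3c read 4.52, 4.46, 4.50 and 5.13 in Tom+/Pecam1+ cells, against 7.81, 8.12, 7.76 and 7.56 in Tom-/Pecam1- cells, 8.94-fold lower (adjusted p = 2.03e-06). Its receptors Nrp2 (4.51-fold, adjusted p = 9.1e-05) and Plxnd1 (3.29-fold, adjusted p = 1.23e-05) were higher in Tom+/Pecam1+ cells. Of the other class 3 semaphorins, Sema3f was 7.48-fold (adjusted p = 2.12e-05) and Sema3g 3.48-fold higher in Tom+/Pecam1+ cells (adjusted p = 0.000104).

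Of 29 cytokines and TNF family ligands tested, 17 (58.6%) were lower in Tom+/Pecam1+ cells. Of 47 of their receptors 9 (19.1%) were higher and 18 (38.3%) lower, against 14.8% and 17.1% of all genes tested. Il1b, interleukin 1 beta, read 4.75, 4.57, 4.50 and 6.14 in Tom+/Pecam1+ cells, against 10.51, 10.58, 10.67 and 10.17 in Tom-/Pecam1- cells, 45.1-fold lower (log2 difference -5.49, SE 0.39, adjusted p = 4.83e-06). Il1r1, its signalling receptor, read 10.59, 10.61, 10.23 and 10.37 in Tom+/Pecam1+ cells, against 9.21, 9.66, 9.53 and 9.57 in Tom-/Pecam1- cells, 1.94-fold higher (adjusted p = 0.00168). The decoy receptor Il1r2 went the other way and was 23.1-fold lower (adjusted p = 1.31e-05). Tnf read 5.76, 6.34, 5.75 and 6.34 in Tom+/Pecam1+ cells, against 10.25, 9.58, 9.99 and 8.98 in Tom-/Pecam1- cells, 12.5-fold lower (adjusted p = 1.11e-05), and its widely expressed receptor Tnfrsf1a was 1.66-fold higher (adjusted p = 0.00032). Osm, oncostatin M, was 3.96-fold lower (adjusted p = 0.000514), and Il6st, the shared gp130 subunit of its receptor, 1.78-fold higher (adjusted p = 0.000923). Csf1r, the macrophage growth factor receptor, read 5.68, 5.25, 5.38 and 6.48 in Tom+/Pecam1+ cells, against 10, 9.87, 10.06 and 9.32 in Tom-/Pecam1- cells, 17.3-fold lower (adjusted p = 4.81e-06). Of its ligands, Il34 was 2.86-fold lower (adjusted p = 9.79e-05) and Csf1 was not called (-0.44, adjusted p = 0.109). Nor was Il6 called (0.31, adjusted p = 0.688), whose Tom+/Pecam1+ arrays ranged from 7.16 to 9.15, against 7.85 to 9.34 on the Tom-/Pecam1- arrays. The median of the pan-leukocyte markers moved with these genes, lying between 4.93 and 6.70 on the Tom+/Pecam1+ arrays, against 8.20 and 9.59 on the Tom-/Pecam1- arrays, and its part in them was not tested.

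Of 30 chemokines tested, 22 (73.3%) were lower in Tom+/Pecam1+ cells, against 17.1% of all genes tested. Ccl7, a monocyte attractant, read 5.27, 5.35, 5.57 and 5.85 in Tom+/Pecam1+ cells, against 9.66, 9.29, 9.38 and 9.28 in Tom-/Pecam1- cells, 14.8-fold lower (adjusted p = 2.88e-07). Ccl2 read 7.64, 7.39, 6.63 and 7.24 in Tom+/Pecam1+ cells, against 10.67, 10.55, 10.97 and 10.80 in Tom-/Pecam1- cells, 11.5-fold lower (adjusted p = 3.11e-06). Cxcl2, a neutrophil attractant, read 7.81, 7.66, 7.54 and 8.09 in Tom+/Pecam1+ cells, against 11.22, 10.71, 10.84 and 10.72 in Tom-/Pecam1- cells, 8.56-fold lower (adjusted p = 2.97e-06). In these 3 genes all 4 Tom+/Pecam1+ arrays lay below all 4 Tom-/Pecam1- arrays. By contrast Ccl5, a chemokine of T cells, read 5.72, 6.39, 6.21 and 7.53 in Tom+/Pecam1+ cells, against 10.60, 9.72, 9.81 and 7.51 in Tom-/Pecam1- cells, with a difference of 0.03 in repeat 4 and overlapping groups (adjusted p = 0.00659 over all repeats, a call lost without repeat 2 or 3, at adjusted p = 0.0547 and 0.0598). Their receptors on leukocytes, Ccr2 (12.3-fold, adjusted p = 0.000517), Ccr1 (at least 2.46-fold, adjusted p = 0.000359) and Cxcr2 (5.9-fold, adjusted p = 0.000748), were likewise lower in Tom+/Pecam1+ cells.

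The exceptions were the chemokine Cxcl12 and the atypical receptors that bind chemokines without signalling through G proteins. Cxcl12 read 9.91, 10.51, 10.46 and 10.25 in Tom+/Pecam1+ cells, against 9.09, 8.85, 8.51 and 8.86 in Tom-/Pecam1- cells (2.74-fold higher, adjusted p = 0.000216). Its signalling receptor Cxcr4 was lower in Tom+/Pecam1+ cells (log2 difference -0.64, adjusted p = 0.0244, a call lost under 11 alternatives) and its scavenging receptor Ackr3 2.28-fold higher (adjusted p = 0.00062). Ackr1, the Duffy antigen, which carries chemokines on venules, read 9.39, 9.34, 8.99 and 8.04 in Tom+/Pecam1+ cells, against 5.08, 5.16, 5.03 and 5.79 in Tom-/Pecam1- cells (12.8-fold, adjusted p = 2.02e-05). No other chemokine receptor of the 20 tested was called higher.

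The selectins and ICAMs that hold leukocytes were higher in the endothelium and their leukocyte partners in the stroma. Selp, P-selectin, which starts rolling, read 10.25, 10.21, 10.20 and 9.21 in Tom+/Pecam1+ cells, against 5.31, 5.44, 4.91 and 5.22 in Tom-/Pecam1- cells (26.9-fold, adjusted p = 3.4e-06). Sele, E-selectin, read 10.29, 10.32, 10.41 and 9.31 in Tom+/Pecam1+ cells, against 5.16, 5.16, 5.14 and 6.26 in Tom-/Pecam1- cells (25.2-fold, adjusted p = 3.14e-06). Both selectins were lowest in repeat 4 among the Tom+/Pecam1+ arrays, still above every Tom-/Pecam1- array. Selplg, the leukocyte ligand PSGL-1 of both, read 6.10, 5.54, 5.66 and 7.45 in Tom+/Pecam1+ cells, against 9.84, 9.44, 9.42 and 8.04 in Tom-/Pecam1- cells, 7.97-fold lower (adjusted p = 0.00132). Icam2, a counter-receptor of leukocyte integrins that endothelium expresses without stimulation, was 7.91-fold higher (adjusted p = 1.81e-05). Icam1 was 2.09-fold higher (adjusted p = 3.14e-05), with 8.97, 9.06, 9.03 and 9.07 in Tom+/Pecam1+ cells, against 8.11, 7.93, 7.94 and 7.91 in Tom-/Pecam1- cells. The integrin subunits that bind ICAMs were lower in Tom+/Pecam1+ cells: Itgb2 11-fold (adjusted p = 5.3e-05), Itgam 11.5-fold (adjusted p = 9.1e-05) and Itgal 3.57-fold (adjusted p = 0.0038). Vcam1, which binds leukocyte integrins, was 1 of 4 genes of the endothelial list not called, with Madcam1, Cd99l2 and Cd47 (-0.29, SE 0.19, adjusted p = 0.289), with 8.30 to 8.87 on the Tom+/Pecam1+ arrays, against 8.57 to 9.24 on the Tom-/Pecam1- arrays. Its integrin Itga4 was 6.73-fold lower (adjusted p = 0.000229).

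Junction genes of the same list were higher in Tom+/Pecam1+ cells. Cdh5, VE-cadherin, the adherens junction protein of endothelium, read 12.73, 12.35, 12.32 and 11.46 in Tom+/Pecam1+ cells, against 6.86, 7.24, 6.72 and 7.41 in Tom-/Pecam1- cells (35.6-fold, adjusted p = 1.28e-06). Cldn5, a tight junction claudin, read 9.22, 9.06, 9.09 and 8.99 in Tom+/Pecam1+ cells, against 5.16, 5.11, 4.89 and 5.13 in Tom-/Pecam1- cells (16.2-fold, adjusted p = 1.28e-07). The sialomucins Podxl (41.5-fold, adjusted p = 1.28e-07) and Emcn (46.4-fold, adjusted p = 2.33e-06) were among the genes with the greatest differences of all those tested. Thy1 (6.22-fold, adjusted p = 5.15e-06) and Alcam (4.47-fold, adjusted p = 0.000219) were the only members of the list called lower in Tom+/Pecam1+ cells.

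The start regions of 5 genes at this interface are shown because their transcripts lay on opposite sides of it: 4 endothelial (Sele, Selp, Robo4, Ackr1) and 1 stromal (Cxcl2). Each is the 110 bases before the start site in the RefSeq table of build GRCm38.p6, on the strand of the gene, at chr1:164048124-164048233 (plus strand) for Sele, chr1:164115154-164115263 (plus) for Selp, chr9:37401862-37401971 (plus) for Robo4, chr1:173333504-173333613 (minus) for Ackr1 and chr5:90903789-90903898 (plus) for Cxcl2. Capitals mark the ETS core AGGAAG, read on either strand, in the first 4, and in Cxcl2 the NF-kappaB-like letters, which are 3 G, any 2 bases, 2 T, any base and 2 C, read on either strand. Each sequence was searched only for the motif assigned to it. The lack of capitals for the other motif thus does not mean that it is absent.
Sele: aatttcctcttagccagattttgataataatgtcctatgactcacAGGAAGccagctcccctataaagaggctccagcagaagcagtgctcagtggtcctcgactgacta
Selp: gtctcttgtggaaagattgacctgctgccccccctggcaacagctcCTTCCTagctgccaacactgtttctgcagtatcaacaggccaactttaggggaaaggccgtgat
Robo4: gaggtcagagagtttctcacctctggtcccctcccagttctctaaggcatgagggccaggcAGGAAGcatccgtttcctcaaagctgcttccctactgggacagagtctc
Ackr1: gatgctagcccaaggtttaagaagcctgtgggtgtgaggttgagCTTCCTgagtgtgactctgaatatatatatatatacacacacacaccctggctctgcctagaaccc
Cxcl2: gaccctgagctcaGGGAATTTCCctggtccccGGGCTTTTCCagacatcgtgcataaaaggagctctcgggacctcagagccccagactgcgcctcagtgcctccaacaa
The first base of the ETS letters lay at -65 in Sele, -64 in Selp, -49 in Robo4 and -66 in Ackr1, counted from the start site as 0, and the NF-kappaB-like letters of Cxcl2 began at -97 and -78. Over the whole 300-base windows of the table, AGGAAG or CTTCCT, its reverse complement, stood in 35.4% of all 32851 promoters, counted by entry. Counted by gene, over any of its entries, it stood in 37.9% of the 11890 tested genes with an entry. Among the listed genes with an entry it stood in 41 of 98 (41.8%) called higher in Tom+/Pecam1+ cells and in 83 of 194 (42.8%) called lower. The NF-kappaB-like letters stood in 4.79% of all promoters, in 6.27% of the tested genes, in 6 of the 98 (6.12%) and in 15 of the 194 (7.73%). The matches describe these windows only, and the share with either motif was not higher in the endothelial than in the stromal genes.

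Matrix divided by kind. Among 21 basement membrane genes tested, 8 (38.1%) were higher in Tom+/Pecam1+ cells and 1 (4.76%) lower, against 14.8% and 17.1% of all genes tested. But the list's median difference was 0.87, 0.41 and 0.56 in repeats 1 to 3 and 0.04 in repeat 4, where 11 of 21 members were higher. Lama3, a laminin alpha chain, read 9.44, 9.03, 8.81 and 9.08 in Tom+/Pecam1+ cells, against 5.01, 5.25, 5.29 and 5.43 in Tom-/Pecam1- cells (14.4-fold, adjusted p = 2.88e-07). Lama5, an alpha chain of vessel laminins, was 3.45-fold (adjusted p = 0.000141), Nid2 3.05-fold (adjusted p = 0.00055) and Hspg2, perlecan, 2.03-fold higher (adjusted p = 0.00282). Lama2, the laminin alpha chain of muscle and nerve sheaths, was the exception, with 6.22, 5.99, 5.86 and 6.53 in Tom+/Pecam1+ cells, against 9.69, 10.10, 10.26 and 9.82 in Tom-/Pecam1- cells (14-fold lower, adjusted p = 5.41e-07). In Tom+/Pecam1- tumor cells Lama2 ranged from 10.41 to 10.84, above every Tom-/Pecam1- array. Col4a1, a chain of the main collagen IV, read 10.44, 10, 10.08 and 9.20 in Tom+/Pecam1+ cells, against 8.29, 8.76, 8.65 and 9.16 in Tom-/Pecam1- cells, so its difference of 0.04 in repeat 4 stood against 2.15, 1.24 and 1.42 in repeats 1 to 3 (adjusted p = 0.00746, a call lost when repeat 1, 2 or 3 was left out). In repeat 4 Col4a2 and Lama4, whose calls were likewise lost under 3 and 2 alternatives, both differed by -0.01, and Lamb1 (-0.69) and Nid1 (-1.82), which were not called, were lower in Tom+/Pecam1+ cells there. Sparc, a collagen-binding glycoprotein, was not called (0.03, SE 0.10, adjusted p = 0.846).

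**Figure D5:**
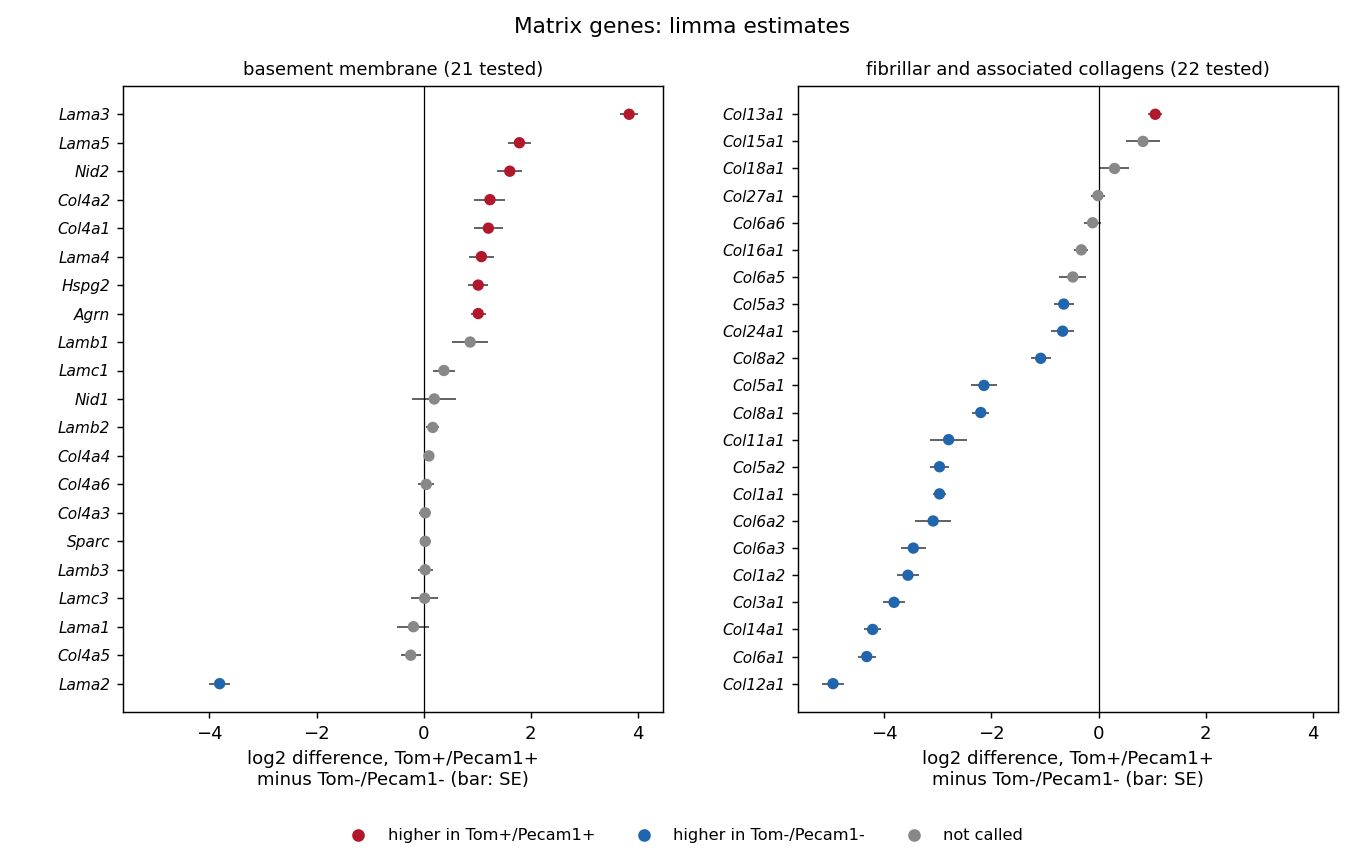
Log2 difference between Tom+/Pecam1+ and Tom-/Pecam1- cells (horizontal axis, point, with its SE as a bar) for each tested gene of the basement membrane list (left, 21 genes) and the fibrillar and associated collagens (right, 22 genes), coloured by call. Basement membrane genes lie mostly at or right of 0 with Lama2 at -3.81, and the 15 collagens called lower lie left of it, down to Col12a1 at -4.96.

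Interstitial collagens (15 of 22 tested, 68.2%) and proteoglycans (15 of 20, 75%) were mostly lower in Tom+/Pecam1+ cells, against 17.1% of all genes tested. In Tom+/Pecam1- tumor cells the median of the collagen list was 8.5 to 8.72, against 7.93 to 8.24 in Tom-/Pecam1- cells. That of the proteoglycans was 8.04 to 8.62, against 9.57 to 9.86. Col1a1, a chain of type I collagen, read 6.79, 6.67, 6.81 and 7.02 in Tom+/Pecam1+ cells, against 9.95, 9.92, 9.66 and 9.62 in Tom-/Pecam1- cells, 7.81-fold lower (adjusted p = 3.22e-07). Col14a1, a fibril-associated collagen, read 5.04, 4.76, 4.74 and 4.58 in Tom+/Pecam1+ cells, against 8.98, 9.16, 9.01 and 8.86 in Tom-/Pecam1- cells, 18.7-fold lower (adjusted p = 1.56e-07). Col3a1 was 14.1-fold (adjusted p = 1.04e-06), Col6a1 20.1-fold (adjusted p = 1.57e-07) and Col12a1 31.1-fold lower (adjusted p = 2.18e-07). Col13a1, a membrane-spanning collagen, was the only member called higher (2.08-fold, adjusted p = 0.000175). Of the small leucine-rich proteoglycans that bind collagen fibrils, Lum was 40.3-fold (adjusted p = 1.22e-06), Fmod 24.8-fold (adjusted p = 6.29e-07) and Dcn 14.9-fold lower (adjusted p = 1.51e-05). The fibroblast marker list moved with these genes, its median lying between 6.69 and 7.04 on the Tom+/Pecam1+ arrays, against 10.22 and 10.51 on the Tom-/Pecam1- arrays, and 3 collagens and 5 proteoglycans tested stand on a marker list themselves. Its part in them was not tested.

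Of 44 glycoproteins and elastic fiber genes tested, 7 (15.9%) were higher and 29 (65.9%) lower in Tom+/Pecam1+ cells, against 14.8% and 17.1% of all genes tested. Some of those lower are typical of tendon. Thbs4, a thrombospondin of tendon and muscle, read 6.52, 6.59, 6.57 and 6.43 in Tom+/Pecam1+ cells, against 11.67, 11.62, 11.56 and 12.84 in Tom-/Pecam1- cells, 42-fold lower (adjusted p = 1.98e-06). Postn, periostin, was 23.7-fold lower (adjusted p = 3.22e-07), Comp 23.5-fold (adjusted p = 3.12e-05) and Fn1, fibronectin, 4.55-fold (adjusted p = 4.89e-07). The median of the tendon markers lay between 4.79 and 5.79 on the Tom+/Pecam1+ arrays, against 9.28 and 10.03 on the Tom-/Pecam1- arrays, and its part in these genes was not tested. Among the 7 higher, Vwf, von Willebrand factor, read 10.77, 10.31, 10.53 and 10.25 in Tom+/Pecam1+ cells, against 5.96, 6.16, 5.95 and 6.25 in Tom-/Pecam1- cells (20.9-fold, adjusted p = 1.28e-07), and Mmrn2, an endothelial matrix multimerin, was 27.7-fold higher (adjusted p = 1.63e-06).

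Matrix receptors followed the matrix in part. Itga6, which with Itgb4 or Itgb1 forms laminin receptors, read 10.64, 10.72, 10.79 and 10.97 in Tom+/Pecam1+ cells, against 8.21, 8.08, 7.91 and 7.76 in Tom-/Pecam1- cells (6.92-fold, adjusted p = 4.3e-07), and Itgb4 was 4.6-fold higher (adjusted p = 4.71e-05). The common partner Itgb1 was not called (0.22, adjusted p = 0.344). Itga5, the fibronectin receptor alpha chain, was 2-fold higher (adjusted p = 0.00102), although Fn1 itself was lower. Itga11, a collagen receptor of fibroblasts, read 4.51, 4.72, 4.47 and 4.44 in Tom+/Pecam1+ cells, against 7.78, 7.97, 7.89 and 8.45 in Tom-/Pecam1- cells, at least 8.97-fold lower (adjusted p = 8.87e-07). The fibrillar collagen receptor Ddr2 was 7.23-fold lower (adjusted p = 1.05e-05) and the vitronectin receptor chain Itgav 2.62-fold (adjusted p = 3.73e-06). In Tom+/Pecam1- tumor cells Itgav ranged from 9.87 to 9.95, against 9.32 to 9.46 in Tom-/Pecam1- cells.

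Of 44 matrix proteases and inhibitors tested, 6 (13.6%) were higher and 29 (65.9%) lower in Tom+/Pecam1+ cells, against 14.8% and 17.1% of all genes tested. The gelatinase Mmp2 read 7.45, 7.14, 7.48 and 6.91 in Tom+/Pecam1+ cells, against 11.06, 11.21, 10.90 and 11.70 in Tom-/Pecam1- cells, 15.7-fold lower (adjusted p = 5.54e-07). The collagen cross-linking enzymes Lox (10.8-fold, adjusted p = 8.39e-06) and Loxl1 (9.47-fold, adjusted p = 7.53e-07), the inhibitor Timp1 (6.21-fold, adjusted p = 5.61e-06) and the fibroblast protease Fap (12.3-fold, adjusted p = 5.59e-06) were lower too. The 6 genes higher in Tom+/Pecam1+ cells were Timp4 (7.08-fold, adjusted p = 0.000246), Adamts1 (2.94-fold, adjusted p = 0.00507), Adamts7 (1.99-fold, adjusted p = 0.00622), the proteoglycan-cleaving Adamts9 (4.68-fold, adjusted p = 5.62e-06), Adam15 (3.47-fold, adjusted p = 8.8e-06) and Adam10, the sheddase that cleaves Notch receptors and cadherins (2.42-fold, adjusted p = 0.000203).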

How the data were processed

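RNA of sorted cells was amplified and hybridised to 1 array per sample. The deposited values are log2 intensities of 41345 probe sets on 18 arrays; RMA and Partek are named per the submitters' processing notes, without versions. In the deposited tumor table, the mean of each repeat number over the 3 sorted populations is the same for every repeat to within 7.67e-05, so a removal of repeat means is part of the values, although not stated in the sources used here.

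A probe set was named where the platform annotation gives 1 symbol (23521 of 41345), and of several probe sets for a gene the brightest on average over the 18 arrays was used. Genes above the 40th percentile on at least 3 of 12 tumor arrays were tested (15307 of 22180). Populations were compared with limma 3.58.1 in R 4.3.3 on the 12 tumor arrays, with population and repeat number as fixed terms, moderated variance and Benjamini-Hochberg adjustment over all tested genes, at an adjusted p of 0.05. Log2 differences are Tom+/Pecam1+ minus Tom-/Pecam1- and SE is the moderated standard error. Same-numbered arrays of the 2 populations had deviations from their group means correlated at -0.72 to -0.64, against -0.17 to 0.51 for other numbers, as such a removal gives, and the block accounts for the degrees of freedom it used (6 residual, against 9 without the block). The pipeline was tested on simulated data.

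Promoter sequences came from a RefSeq table of build GRCm38.p6 with 32851 entries. Figures and counts were made in Python 3.11.15. Arrays carry no read depth, and their number limits the precision. Members of the lists may be named, with array values for up to 4 members per list and direction by adjusted p, for both partners of a pair, and for the 8 genes with the largest difference each way. The lists, pairs and members were chosen with earlier results of these data known. Alternatives covered the block, the arrays in the fit, the filter, the scaling, the probe set rule, the variance model, the threshold and each replicate left out. Muscle arrays were left out as outside the comparison.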

Additional observations from a re-analysis of the deposited data

Results flagged for a closer look

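In 36 of the 366 groups of 4 arrays examined (183 named genes in each of the 2 populations), 1 array lay so far from the other 3 that its gap, as a share of the group's range, exceeded Dixon's critical value for 4 values. Chance gives about 1 in 20 such groups. Genes share arrays, so these cases are not independent, and 26 of the 36 fell on repeat 4, the repeat at day 38.

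Repeat 4 was the low array of the Tom+/Pecam1+ cells for vessel genes and a few others, in log2 intensity against the range of the other 3: Adgrl4 at 10.97 against 11.56 to 11.66, Apln at 5.70 against 8.02 to 8.26, Emcn at 11.42 against 12.09 to 12.15, Flt1 at 11.07 against 11.69 to 11.71, Fn1 at 9.70 against 9.91 to 9.93, Il6 at 7.16 against 9.03 to 9.15, Kdr at 10.32 against 11.34 to 11.37, Myct1 at 10.04 against 10.53 to 10.60, Nid1 at 9.51 against 10.85 to 11.03, Pecam1 at 11.57 against 11.96 to 12, Sele at 9.31 against 10.29 to 10.41 and Selp at 9.21 against 10.20 to 10.25. It was the high array of the Tom+/Pecam1+ cells for Ccr2 at 7.09 against 5.02 to 5.20, Egfr at 6.22 against 5.86 to 5.90, Fgfr3 at 7.24 against 6.43 to 6.48, Hgf at 4.87 against 4.04 to 4.10, Il1b at 6.14 against 4.50 to 4.75, Il1r2 at 5.13 against 4.07 to 4.17, Notch3 at 7.12 against 6.23 to 6.34 and Sema3c at 5.13 against 4.46 to 4.52. In the Tom-/Pecam1- cells it was the high array for Ackr1 at 5.79 against 5.03 to 5.16, Apln at 6.01 against 4.27 to 4.35, Fabp4 at 10.62 against 9.29 to 9.51, Gas6 at 11.68 against 11.05 to 11.10, Sele at 6.26 against 5.14 to 5.16 and Thbs4 at 12.84 against 11.56 to 11.67.

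In repeat 1 of the Tom+/Pecam1+ cells the highest values stood apart for Dll4 at 9.50 against 9.02 to 9.09, Smo at 8.45 against 8.14 to 8.19, Tgfbr1 at 7.41 against 7.25 to 7.27 and Tie1 at 10.81 against 10.22 to 10.32. In repeat 1 of the Tom+/Pecam1+ cells the lowest value stood apart for Il34 at 5.74 against 6.15 to 6.22. In repeat 2 of the Tom+/Pecam1+ cells the highest value stood apart for Lox at 6.91 against 6.26 to 6.31. In repeat 1 of the Tom-/Pecam1- cells the highest value stood apart for Icam1 at 8.11 against 7.91 to 7.94. In repeat 1 of the Tom-/Pecam1- cells the lowest values stood apart for Efna1 at 5.83 against 6.31 to 6.32 and Loxl1 at 9.69 against 9.85 to 9.88. In repeat 3 of the Tom-/Pecam1- cells the highest value stood apart for Wnt5a at 6.42 against 5.48 to 5.63.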

How the results depend on the processing

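Of 163 named genes past the threshold, 148 kept their call under all 24 alternatives, 15 lost it under at least 1 and none reversed. Among the rest of the 183 named genes, 11 gained a call under at least 1 alternative. Some genes given as not called therefore depend on the setting. The counts of genes higher and lower in Tom+/Pecam1+ cells were 2267 and 2622, and those of listed genes 134 and 284. At an adjusted p of 0.01 they were 1395 and 1710, with 117 and 236 listed. With a minimum change of 2-fold they were 862 and 1395, with 107 and 229 listed, since both are stricter. Centring each array on the median of its named genes, chosen after seeing the data, gave 3800 higher and 2025 lower. Leaving out each replicate in turn, alone or in both populations, gave 1423 to 2418 higher and 1733 to 2838 lower, with 113 to 149 and 228 to 294 listed. The repeat numbers act as a block because repeat means were removed before deposit; without the replicate block 3257 and 3432 genes were called (150 and 308 listed), with residual degrees of freedom overstated by the removal. The largest losses of calls among named genes were of Igf1r (12 alternatives), Cxcr4 (11), Angpt2 (10) and Vegfd (7). Il1r1, Il6st and Tnfrsf1a lost theirs only to the 2-fold minimum, Tgfb2 without repeat 2 (adjusted p = 0.0517), and Adamts7 without repeat 2 (adjusted p = 0.0539) and to the 2-fold minimum. Genes near background have compressed differences, and 6873 of 22180 genes were too dim to test.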

Other observations

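The 8 genes with the largest and the 8 with the smallest log2 difference, among called genes whose populations did not overlap, include vessel and stromal genes that the comparison above does not describe. Adgrl4, an adhesion G protein-coupled receptor of endothelium, was 48.8-fold higher in Tom+/Pecam1+ cells (adjusted p = 5.56e-06). Gpihbp1, which carries lipoprotein lipase across capillary endothelium, read 11.67, 11.38, 11.49 and 11.21 in Tom+/Pecam1+ cells, against 5.77, 5.97, 5.78 and 6.57 in Tom-/Pecam1- cells. Myct1 was 46.4-fold (adjusted p = 6.55e-07), Cyyr1 39.4-fold (adjusted p = 2.4e-07) and Mall 38.6-fold higher (adjusted p = 2.35e-06). At the other end, the myeloid receptor Lilrb4a was 78.2-fold lower in Tom+/Pecam1+ cells (adjusted p = 5.84e-06) and the cartilage and tendon matrix gene Chad 62.3-fold lower (adjusted p = 4.04e-06). Dpt, dermatopontin, was 48.2-fold (adjusted p = 1.71e-06) and Cilp 41-fold lower (adjusted p = 1.22e-06). S100a8, a calprotectin subunit of neutrophils, read 5.13, 5.23, 5.02 and 4.93 in Tom+/Pecam1+ cells, against 11.18, 10.43, 10.59 and 11.07 in Tom-/Pecam1- cells, so all Tom+/Pecam1+ arrays lay far below the others.

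Of 6 lymphatic endothelial markers tested, 2 were higher and 3 lower in Tom+/Pecam1+ cells. Of 8 mast cell markers, 2 were higher and 6 lower, and of 9 dendritic cell and class II markers 8 were lower. The shares over all genes tested were 14.8% higher and 17.1% lower, and lists this short were not read further.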
